A study of Mus musculus with 12 samples.

Results

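The genes of the mitochondrial respiratory chain and of ATP synthase were followed across polyadenylated RNA libraries of mouse CD4+ T cells. They were chosen by symbol (names beginning with Nduf, Uqcr, Atp5 or Cox4 to Cox8, plus Sdha, Sdhb, Sdhc, Sdhd, Cyc1 and Cycs), and a gene had to be above 0 FPKM in all 12 libraries. FPKM is a level per gene, scaled to the length of the transcript and to the size of the library. Of 94 matching names among 23991 in the files, 89 met this rule. The rule uses names and detection only, so levels are partly set by it. It was written with earlier results of these data known. The 12 libraries form 4 groups of 3: Adcy10-/- cells with polarizing cytokines, WT cells with polarizing cytokines, Adcy10-/- cells in baseline medium and WT cells in baseline medium. All cells came from male mice of the C57BL/6 strain, aged 8 to 10 weeks, and CD4+ cells of spleen or lymph node were enriched by removing other cells with magnetic beads. The labels give the mutant as Adcy10-/- and name no Cre or promoter. Adcy10 encodes soluble adenylyl cyclase, which makes cyclic AMP inside the cell, including in mitochondria. The T cells were stimulated for 18 h with antibodies to CD3, coated on the plate at 10 µg/mL, and to CD28, added at 2 µg/mL. The protocol lists 20 ng/mL each of IL-1β and IL-23, 25 ng/mL of IL-6, and 1 µg/mL each of antibodies against IFNγ and IL-4, and does not say which of these the baseline medium held. Nothing in the labels ties the replicates of a group to different mice, so every p-value below measures only the spread between these samples.

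The respiratory chain moves electrons from NADH (complex I) and succinate (complex II) through complex III and cytochrome c to oxygen (complex IV), and pumps protons across the inner mitochondrial membrane. ATP synthase, complex V, lets those protons flow back and makes ATP. Activated T cells raise both glycolysis and respiration, and cyclic AMP made by soluble adenylyl cyclase is known to act on complex IV in mitochondria through protein kinase A, a change in protein and not in transcript. All genes described here are nuclear. The subunits that mitochondrial DNA encodes are not analysed here.

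The targeted gene, Adcy10, had a listed value of 0 FPKM in each of the 12 libraries of both genotypes, so its level cannot serve as a check on genotype. The markers of the labelled cell type were present: 9 of 9 CD4 T cell identity genes found in the files, such as Cd3e, Cd4 and Lck, were at 1 FPKM or more in every library and summed to between 1816 and 2277 FPKM. Markers of other cells were low but present. B cell markers summed to between 2.07 and 52.2 FPKM, macrophage markers to between 15.5 and 104 FPKM, neutrophil markers to between 0.652 and 60.0 FPKM, red cell markers to between 0.443 and 131 FPKM, and CD8 T cell markers to between 8.43 and 14.7 FPKM. The libraries summed to between 547870 and 594750 FPKM, and read depth is unknown because FPKM carries no counts. One library stood apart most for these genes: WT cells with cytokines, replicate 2, held the highest value of 54 of 87 members, so results that rest on it are given with and without it. At the low end, WT cells at baseline, replicate 2, held the lowest value of 26 members, against 9.59% of all tested genes. Adcy10-/- cells with cytokines, replicate 3, held the lowest value of 17 members, against 6.73% of all tested genes.

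The members were among the better expressed genes of these cells. Of the 87 that could be tested (1 FPKM or more in at least 3 libraries), 63 had a mean of 100 FPKM or more over the 12 libraries, a level reached by 8.29% of the 10126 genes tested. The median gene mean was 406 FPKM for the 15 genes of complex V, 339 FPKM for the 14 of complex IV, 231 FPKM for the 9 of complex III, 116 FPKM for the 36 of complex I and 114 FPKM for the 4 of complex II. Complexes I and II, where electrons enter the chain, thus had the lower levels per gene. The 8 assembly factors of complex I that share its prefix or are named with Atp5 (Ndufaf1 to Ndufaf7 and Atp5sl) had a median of 12.9 FPKM. Cycs, which encodes cytochrome c, the carrier between complexes III and IV, averaged 66.0 FPKM.

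**Figure D1:**
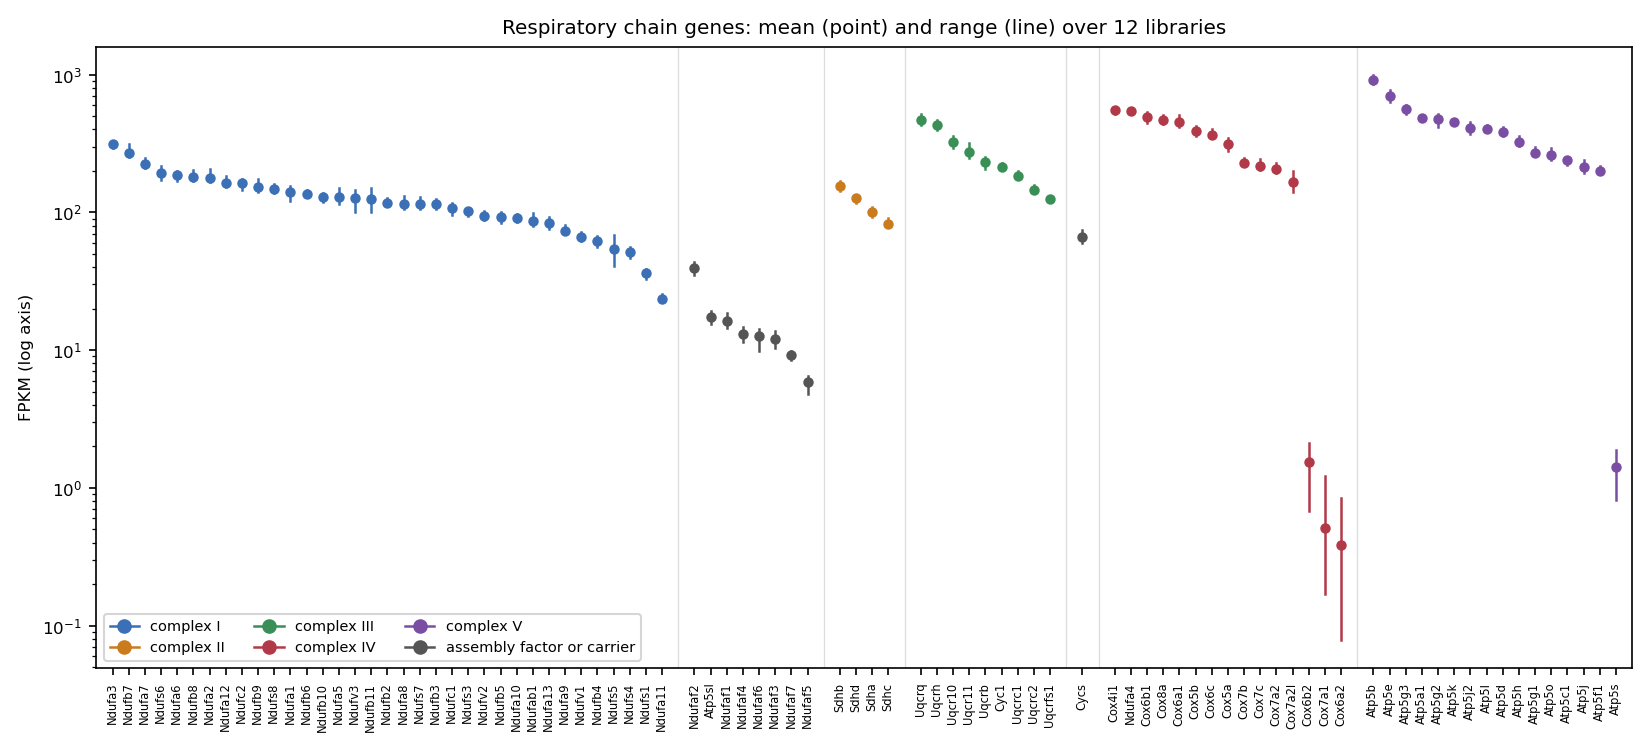
Mean FPKM of the members over 12 libraries (points; lines run to the lowest and highest library), on a log axis, ordered within each complex by mean. Levels are lowest for complexes I and II and highest for complex V, and Cox6b2, Cox7a1, Cox6a2 and Atp5s lie near or below 1 to 2 FPKM.

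Within complex I, the highest gene was Ndufa3 at 311 FPKM, followed by Ndufb7 at 269 FPKM, and the lowest were Ndufs1 at 36.2 FPKM and Ndufa11 at 23.6 FPKM. All are accessory subunits except Ndufs1, which encodes the iron-sulfur subunit that carries electrons through the peripheral arm. The 7 nuclear core subunits, those shared with the bacterial enzyme, had a median of 102 FPKM and the 29 accessory subunits one of 126 FPKM. In complex II, Sdhb, the iron-sulfur subunit, averaged 155 FPKM, the membrane anchor Sdhd 127 FPKM, the flavoprotein Sdha 101 FPKM and the other membrane anchor Sdhc 82.2 FPKM. Its members thus lay within a 1.89-fold range, the narrowest of the complexes. In complex III, the small subunits Uqcrq (466 FPKM) and Uqcrh (429 FPKM) were highest, while the core protein Uqcrc2 (145 FPKM) and the Rieske iron-sulfur protein Uqcrfs1 (125 FPKM) were lowest. In complex V, the catalytic β subunit Atp5b was the highest member of all at 919 FPKM, followed by the small ε subunit Atp5e at 705 FPKM. Its lowest subunit genes were Atp5j at 215 FPKM and Atp5f1 at 199 FPKM, both of the peripheral stalk.

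Complex IV has subunits with isoforms for particular tissues, and these cells used a single set. Cox4i1 made up 99.98% of the summed Cox4i1 and Cox4i2 level, Cox6a1 99.92% of the pair with the heart and muscle form Cox6a2, Cox6b1 99.69% of the pair with the testis form Cox6b2, and Cox7a2 99.75% of the pair with the heart and muscle form Cox7a1. The highest genes of the complex were Cox4i1 at 551 FPKM and Ndufa4 at 541 FPKM. Ndufa4 is named for complex I, but its product is a subunit of complex IV and is counted there. Of the 5 matching names left out by the detection rule, Cox7b2, Cox8b, Cox8c and Ndufa4l2 were listed at 0 FPKM in all 12 libraries, and Cox4i2 was above 0 in 9 of them. Just inside the rule were Cox6a2, with a lowest value of 0.0787 FPKM, and Cox7a1, at 0.17 FPKM, and both failed the filter for testing. The c-ring of complex V is made from 3 genes that encode the same mature protein, and all were used: Atp5g3 supplied 42.9%, Atp5g2 36.4% and Atp5g1 20.8% of their summed level. Group means of these shares differed by less than 1 percentage point, which was within the spread between libraries.

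The members varied little from library to library. Their coefficient of variation over the 12 libraries, the SD as a percentage of the mean, had a median of 4.96% among the 78 members with a mean of 20 FPKM or more, against 6.51% among the 3614 tested genes with such a mean. These sets were not matched for level: 63 of those members, and 839 of those genes, averaged 100 FPKM or more. The steadiest were Atp5a1, the catalytic α subunit, at 2.70%, and Ndufa4 at 2.71%. The most variable with a mean of 20 FPKM or more were Ndufs5 at 13.9%, Ndufb11 at 13.6%, Cox7a2l at 12.4% and Ndufv3 at 10.5%. Ndufs5, Ndufb11 and Ndufv3 encode complex I accessory subunits, and Cox7a2l encodes a factor that joins complexes III and IV into supercomplexes. Ndufb11 and Ndufv3 differed between media and are taken up below. Cox7a2l differed between replicate numbers: it lay between 182 and 198 FPKM in the 4 libraries numbered 1 and between 140 and 170 FPKM in the other 8. In that split 3 members (Cox7a2l, Ndufa6 and Cox6b2) were higher in number 1 without overlap, with 4.01% of tested genes doing so, and 2 (Atp5b and Ndufa5) were lower, with 7.19% of tested genes doing so. The same libraries stood apart in marker sums: the 8 B cell markers summed to between 2.07 and 7.97 FPKM in number 1, against 24.8 to 52.2 FPKM in the other 8 libraries, and the CD4 T cell identity genes to between 2187 and 2277 FPKM in number 1, against 1816 to 2150.5 FPKM. Their part in the result was not tested.

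Summed over its genes, each complex kept a nearly constant level in the 4 groups. Complex I summed to 4516 ± 87.9 FPKM in Adcy10-/- cells with cytokines, 4718 ± 224 FPKM in WT cells with cytokines, 4525 ± 67.8 FPKM in Adcy10-/- cells at baseline and 4442 ± 92.0 FPKM in WT cells at baseline (SD, n = 3 each). Complex V summed to 6223 ± 178 FPKM in Adcy10-/- cells with cytokines, 6449 ± 262 FPKM in WT cells with cytokines, 6317 ± 70.9 FPKM in Adcy10-/- cells at baseline and 6209 ± 112 FPKM in WT cells at baseline. The largest difference of means was that of complex I in WT cells, 6.20% higher with cytokines, and the WT groups did not overlap, with 4590, 4976 and 4586 FPKM in WT cells with cytokines against 4509, 4337 and 4481 FPKM in WT cells at baseline. Without WT cytokines replicate 2 that difference was 3.28%. As a share of library FPKM, which allows for the differing library totals, complex I averaged 0.819% in WT cells with cytokines and 0.794% in WT cells at baseline. For complexes II to V the WT groups overlapped, with differences of means between 1.84% and 5.57%, and the other pairs of groups overlapped for all 5 complexes. Without WT cytokines replicate 2 the WT differences were -0.880% for complex II, 0.459% for III, 2.90% for IV and 1.45% for V. The Adcy10-/- mean with cytokines then differed from the WT mean by -1.58% (I), 0.564% (II), 0.510% (III), -0.631% (IV) and -1.22% (V). Compared within replicate numbers, complex I was higher with cytokines in WT cells in 3 of 3 pairs (by 1.80% to 14.7%), as was complex IV (by 0.861% to 13.9%). With cytokines, the Adcy10-/- library was the lower of its pair in 3 of 3 pairs for complex I (-7.73% to -1.20%), complex IV (-4.92% to -1.82%) and complex V (-5.55% to -1.09%). Library totals differed, and as a share of library FPKM the complex IV and V differences did not hold in every pair. Complex IV was 0.743%, 0.773% and 0.744% in Adcy10-/- cells with cytokines, against 0.752%, 0.767% and 0.741% in WT cells with cytokines. Complex V was 1.107%, 1.136% and 1.10%, against 1.1135%, 1.135% and 1.110%. Complex I stayed lower in each pair (0.801%, 0.818% and 0.807%, against 0.807%, 0.837% and 0.813%). At baseline, complexes I and IV were higher in the Adcy10-/- library in 3 of 3 pairs (0.133% to 3.41% for I, 0.505% to 6.15% for IV), although 1 baseline pair showed little correlation. These sums are dominated by the most abundant genes, and in whole-cell RNA fewer cells of a type and less RNA per cell cannot be told apart.

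**Figure D2:**
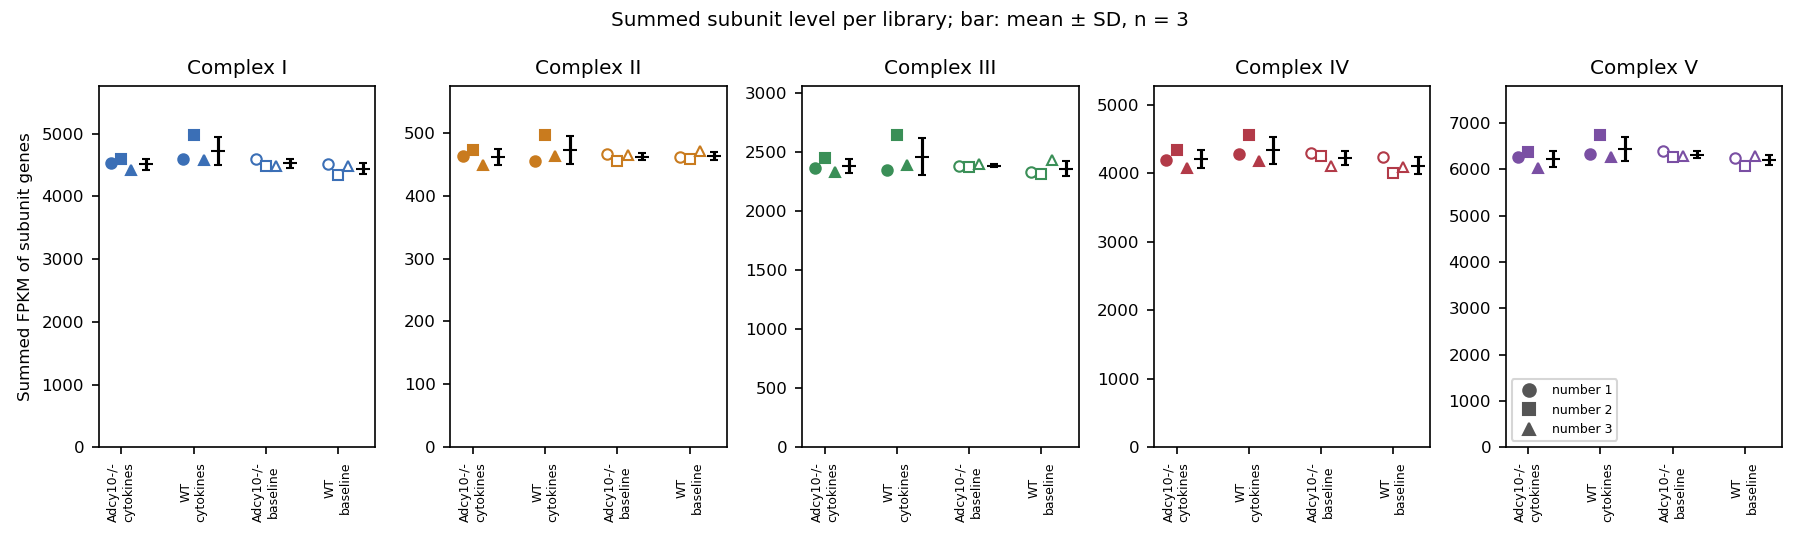
Summed FPKM of the subunit genes of each complex in each library, with the mean ± SD of 3 libraries beside each group; symbols mark replicate numbers. WT cells with cytokines, replicate 2 (filled square), is the highest library for every complex, and the other libraries lie close together.

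The effect of the cytokines on WT cells was tested first. One member of 87 passed: Ndufb11, which encodes an accessory subunit in the membrane arm of complex I, rose with cytokines (4.93% of all tested genes passed in this comparison, in either direction). Its level was 150, 144 and 142 FPKM in WT cells with cytokines, against 120, 101 and 108 FPKM in WT cells at baseline. All 3 libraries with cytokines lay above all 3 at baseline. The log2 change was 0.41 (SE 0.08, limma, Benjamini-Hochberg adjusted p = 0.0114), a rise of 32.4% on the scale of FPKM plus 1. It passed in 22 of 23 alternative analyses and failed without WT baseline replicate 2, the library in which it was lowest (log2 change 0.35, adjusted p = 0.0633 with limma). Alternatives that left out an Adcy10-/- library could alter only the estimate of spread, not the WT change of Ndufb11. The promoter window of Ndufb11, the 250 bases before and 50 bases after its RefSeq start site (GRCm38.p6, chrX:20617570-20617869, minus strand), is shown because this is the gene that passed. Capitals mark a match to AANATGGCG, the letters searched for the factor YY1, which begins 211 bases before the start.
Ndufb11: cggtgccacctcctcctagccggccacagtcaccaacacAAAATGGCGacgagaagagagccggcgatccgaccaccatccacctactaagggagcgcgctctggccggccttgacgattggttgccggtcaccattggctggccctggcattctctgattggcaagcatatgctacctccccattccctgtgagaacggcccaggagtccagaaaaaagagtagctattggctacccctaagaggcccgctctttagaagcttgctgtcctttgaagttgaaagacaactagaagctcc
A match is a description of the letters only. In the GENCODE M21 annotation Ndufb11 overlaps Rbm10, an RNA-binding protein gene on the opposite strand, by 117 bases, and whether reads were counted by strand is not given in the sources used here. Rbm10 lay between 42.7 and 46.2 FPKM in WT cells with cytokines and between 37.0 and 41.9 FPKM in WT cells at baseline (log2 change 0.18, limma adjusted p = 0.129). Its part in the Ndufb11 value was not tested. The sum of the NK cell marker list moved with the medium in WT cells, with 6.04 to 8.33 FPKM with cytokines and 21.7 to 29.1 FPKM at baseline, most of it Eomes at baseline, and its part was not tested. Eomes averaged 2.39 FPKM with cytokines and 23.7 FPKM at baseline. Prf1 went the other way (4.42 FPKM with cytokines and 2.75 FPKM at baseline). Ncr1, Klrb1c and Klra8 stayed at 0.218 FPKM or less.

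Ndufv3, an accessory subunit of the NADH-oxidizing module of complex I, came next. It measured 146, 134 and 132 FPKM in WT cells with cytokines, against 123, 101 and 121 FPKM in WT cells at baseline. The groups did not overlap, and the log2 change was 0.26 (SE 0.08, limma adjusted p = 0.0793). With the replicate number as a block, which compares libraries of the same number, Ndufv3 passed with the same change (limma adjusted p = 0.0250, or 0.0133 with the block within genotype). The number of members that passed in WT cells was 3 of 87 with either block, Ndufb11 included, while 14.8% of all tested genes passed with the block over all 12 libraries and 15.5% with the block within genotype. The members' count lies below both shares; this difference was not tested. The other was Cox6a1 with the block over all 12 libraries (adjusted p = 0.0456, limma) and Ndufa1 with the block within genotype (adjusted p = 0.0282, limma). The promoter window of Ndufv3 (RefSeq, GRCm38.p6, chr17:31519865-31520164, plus strand) is given for comparison and held none of the 4 motifs searched, so it has no capitals.
Ndufv3: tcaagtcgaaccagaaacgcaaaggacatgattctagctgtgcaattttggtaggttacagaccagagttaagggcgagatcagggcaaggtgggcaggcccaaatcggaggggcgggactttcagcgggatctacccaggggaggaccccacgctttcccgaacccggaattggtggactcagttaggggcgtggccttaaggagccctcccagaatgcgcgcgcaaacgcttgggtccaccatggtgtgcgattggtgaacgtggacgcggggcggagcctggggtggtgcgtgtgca
No gene overlaps Ndufv3 in the GENCODE M21 annotation.

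The other members with the largest WT changes did not pass without the block. Ndufs5 gave 62.9, 68.5 and 52.0 FPKM in WT cells with cytokines, against 56.0, 40.7 and 49.2 FPKM in WT cells at baseline. Those groups overlapped (log2 change 0.33, SE 0.13, limma adjusted p = 0.206). Cox6a1, the subunit VIa form used here, had 459, 511 and 443 FPKM in WT cells with cytokines, against 416, 424 and 425 FPKM in WT cells at baseline. The groups did not overlap, and the log2 change was 0.16 (SE 0.05, limma adjusted p = 0.119). Uqcr11, a small subunit of complex III, had 270, 320 and 289 FPKM in WT cells with cytokines, against 249, 256 and 272 FPKM in WT cells at baseline (log2 change 0.17, limma adjusted p = 0.156). Ndufa1, a small membrane subunit of complex I, had 143, 146 and 151 FPKM in WT cells with cytokines, against 136, 121 and 133 FPKM in WT cells at baseline. These groups did not overlap, and the log2 change was 0.17 (limma adjusted p = 0.142). Ndufaf3, which helps to build the arm of complex I that binds ubiquinone, had a log2 change of 0.18 (limma adjusted p = 0.229). The largest negative changes, none of which passed, were those of Atp5s, named for a coupling factor of ATP synthase (-0.27), Ndufaf4 (-0.14), Ndufaf7 (-0.09) and Ndufaf6 (-0.08), 3 of which are assembly factors of complex I.

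**Figure D3:**
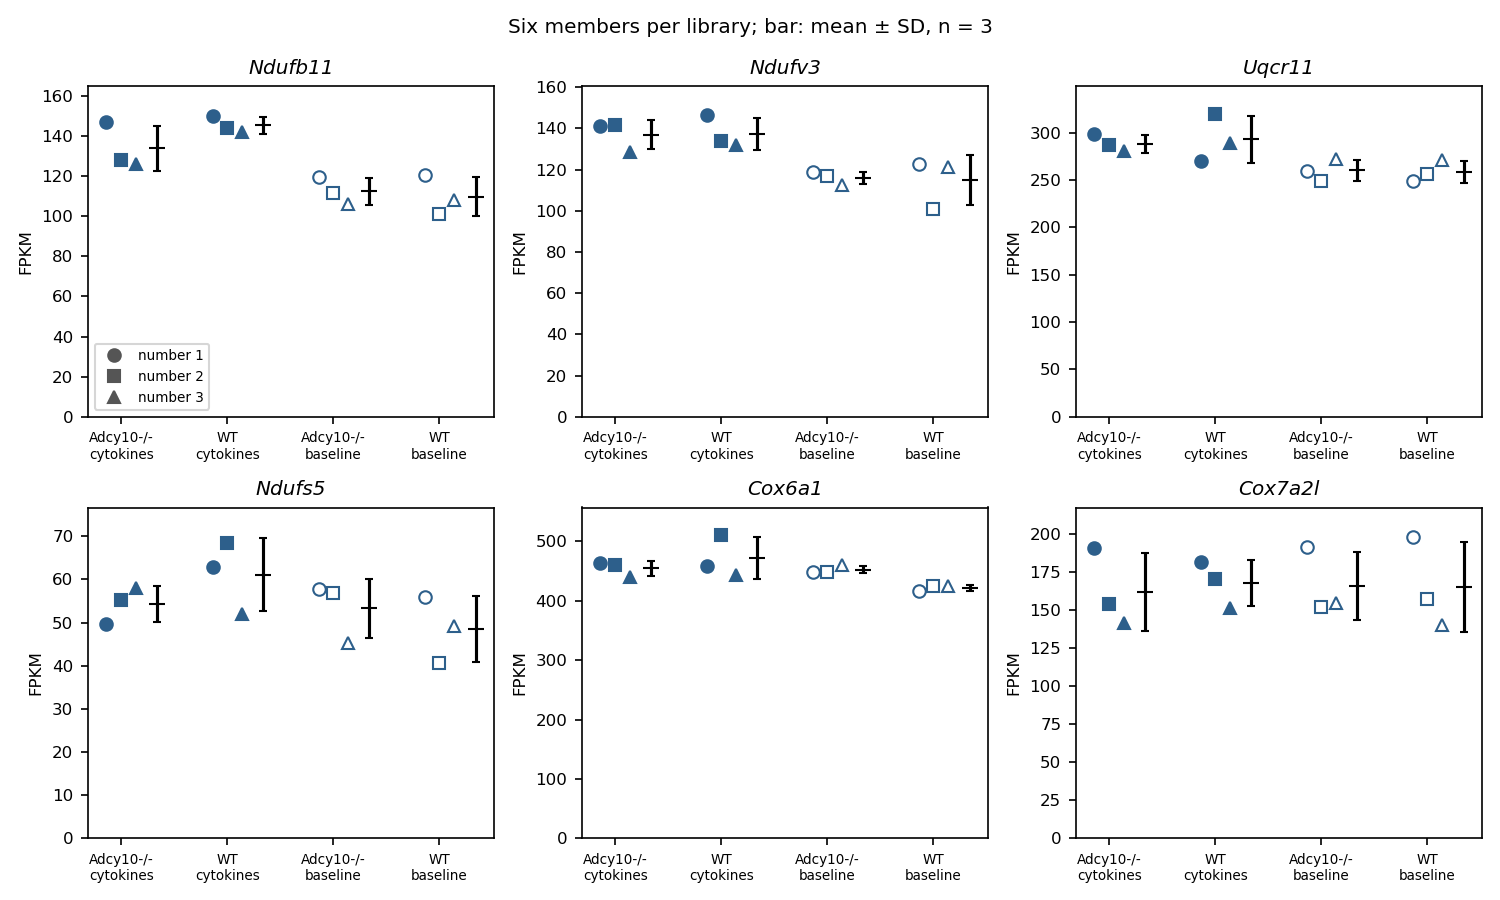
FPKM of Ndufb11, Ndufv3, Uqcr11, Ndufs5, Cox6a1 and Cox7a2l in each library, with the mean ± SD of 3 libraries; symbols mark replicate numbers, filled with cytokines and open at baseline. For Ndufb11 and Ndufv3 all libraries with cytokines lie above all baseline libraries of the same genotype, and Cox7a2l is highest in the libraries numbered 1 in each group.

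Across the whole list, the WT changes leaned to one side. Of the 87 members tested, 66 had a value above 0, against 45.9% of all tested genes, and the median log2 change was 0.06, against -0.01 over all tested genes. Without overlap between groups, 16 members were higher with cytokines and 0 were lower, where 10.5% and 10.3% of all tested genes were. Of the 16, 9 belong to complex I (among them Ndufc1, Ndufs7, Ndufa9, Ndufs4, Ndufa2, Ndufa1, Ndufv3 and Ndufb11), 3 to complex IV (Cox5b, Cox6b1 and Cox6a1), 2 to complex V (Atp5k and Atp5o), 1 to complex III (Uqcrfs1), and 1 is the assembly factor Ndufaf3. The median log2 change was 0.08 for complexes I and IV, 0.06 for complex III, 0.05 for complex V, 0.03 for complex II and -0.06 for the assembly factors. Cycs lay between 62.9 and 67.5 FPKM in WT cells with cytokines and between 63.3 and 71.0 FPKM in WT cells at baseline, with overlap.

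Much of this lean moved with 1 library. In WT cells with cytokines, replicate 2, the members deviated from their mean over all libraries by a median of 0.11 on the log2 scale, while the other 11 libraries lay between -0.05 and 0.02. All tested genes deviated there by a median of -0.01. This library also had the largest sum, 594750 FPKM, and 54 of 87 members (62.1%) had their highest value in it, against 10.8% of all tested genes. Without it the median WT change of the members was 0.02, with 53 of 87 above 0. All tested genes then had a median of -0.01, with 47.5% above 0. With quantile normalization of all libraries the members' median was 0.03, with 56 above 0. With median-ratio scaling of all libraries the median was 0.07, with 73 above 0. Its marker sums were 39.8 FPKM for B cells, 29.3 FPKM for macrophages and 2.84 FPKM for red cells, inside the range of the other libraries, as was the sum for neutrophils, and 14.7 FPKM for CD8 T cells, the highest of the 12. Their part in the result was not tested. Ndufb11 was not tied to it: without that library its log2 change was 0.41 (limma adjusted p = 0.0372).

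**Figure D4:**
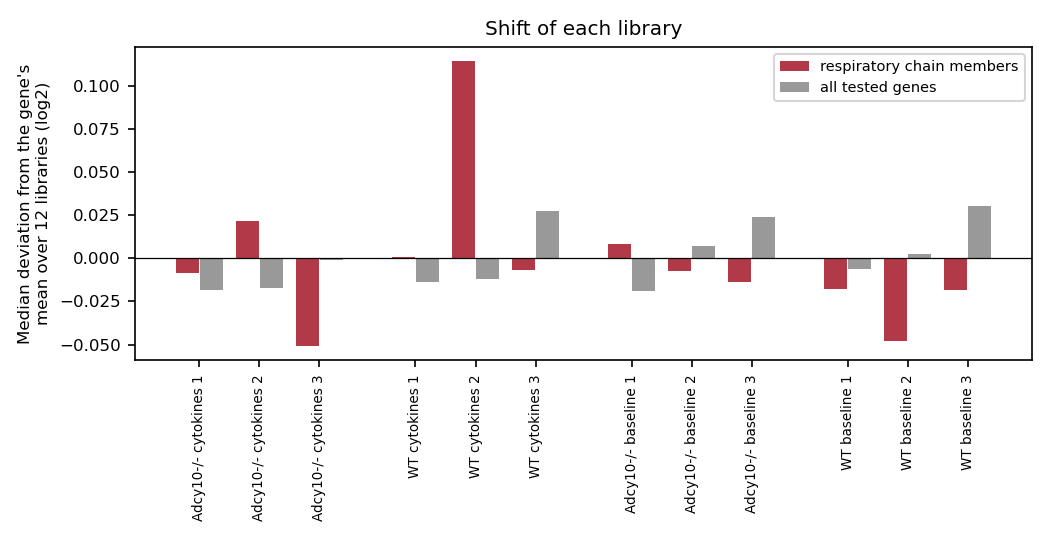
Median deviation, on the log2(FPKM + 1) scale, of the members (red) and of all tested genes (grey) from each gene's mean over 12 libraries, by library. WT cytokines replicate 2 stands at 0.11 for the members and at -0.01 for all tested genes.

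In Adcy10-/- cells the same comparison of media gave 0 members of 87 passing in the limma fit without a block, where 4.27% of all tested genes passed, and 3 members, and 15.3% of all tested genes, had an unadjusted p below 0.05. Ndufb11 and Ndufv3 again had the largest changes. Ndufb11 had 147, 128 and 126 FPKM in Adcy10-/- cells with cytokines, against 119, 112 and 106 FPKM in Adcy10-/- cells at baseline. The groups did not overlap (log2 change 0.25, SE 0.08, limma adjusted p = 0.106), and the gene passed with the block over all 12 libraries (adjusted p = 0.00551) and with the block within genotype (adjusted p = 0.00816). Ndufv3 had 141, 141 and 129 FPKM in Adcy10-/- cells with cytokines, against 119, 117 and 113 FPKM in Adcy10-/- cells at baseline. These groups did not overlap either (log2 change 0.24, SE 0.08, limma adjusted p = 0.121), and with the same blocks the adjusted p was 0.0416 and 0.0208. With either block these were the 2 of 87 members that passed, while 10.7% of all tested genes passed with the block over all 12 libraries and 11.8% with the block within genotype. Between these media the macrophage and monocyte markers summed to 21.5 to 28.3 FPKM with cytokines and 15.5 to 20.5 FPKM at baseline, and the NK cell markers to 5.41 to 7.10 FPKM with cytokines and 23.2 to 32.0 FPKM at baseline, both without overlap, and their part was not tested. The NK cell sum moved with Eomes, which averaged 2.50 FPKM with cytokines and 25.7 FPKM at baseline. Prf1 went the other way (3.93 FPKM with cytokines and 2.18 FPKM at baseline). Ncr1, Klrb1c and Klra8 stayed at 0.218 FPKM or less. Uqcr11 was 299, 287 and 280 FPKM in Adcy10-/- cells with cytokines, against 260, 249 and 272 FPKM in Adcy10-/- cells at baseline, without overlap (log2 change 0.15, limma adjusted p = 0.286).

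In Adcy10-/- cells the direction of the whole list depended on single libraries: 35 of 87 members had a value above 0, against 42.4% of all tested genes, and the median log2 change was -0.01, against -0.02 over all tested genes. Without Adcy10-/- cytokines replicate 2 it was -0.03, with 26 above 0, and without Adcy10-/- cytokines replicate 3 it was 0.0077, with 45 above 0. Without overlap, 4 members were higher with cytokines (Ndufb11, Ndufv3, Uqcr11 and Ndufb9), where 9.28% of tested genes were, and 5 were lower (Ndufab1, Ndufb10, Uqcr10, Uqcrc1 and Atp5g3), where 12.3% were. The largest negative changes, none of which passed, were those of the assembly factor Ndufaf5 (-0.14), of Ndufab1, the mitochondrial acyl carrier protein (-0.14), of Cox5a, a matrix-side subunit of complex IV (-0.13), and of the assembly factor Ndufaf2 (-0.11). Medians by complex lay between -0.02 (complex II) and 0.01 (complex IV). With median-ratio scaling or quantile normalization the median of the members was 0.0049 or 0.0058 and thus above 0.

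The genotypes were compared in each medium. At baseline 0 of 87 members passed in limma, as did 0% of all tested genes (118, or 1.17%, had an unadjusted p below 0.05, and 1 of these, Ndufb10, was a member). Ndufb10, an accessory subunit of the membrane arm of complex I, had 134, 134 and 132 FPKM in Adcy10-/- cells at baseline, against 130, 119 and 123 FPKM in WT cells at baseline (log2 difference 0.10, SE 0.04). The groups did not overlap, but the adjusted p from limma was 0.99993. The median difference of the members was 0.02, with 59 of 87 above 0, against 47.5% of all tested genes. It was 0.0080, with 50 above 0, without WT baseline replicate 2, against -0.0097 and 44.7% above 0 over all tested genes. Without Adcy10-/- baseline replicate 1 it was 0.0082, with 54 above 0. The median over all tested genes was then also 0.0082, with 54.6% above 0, so the members did not differ from the background. With quantile normalization the members' median was 0.015, with 56 above 0, and with median-ratio scaling 0.029, with 63 above 0. Without overlap 6 members were higher in Adcy10-/- cells (Uqcrc1, Atp5d, Ndufb7, Ndufs7, Ndufb10 and Cox6a1), where 2.57% of tested genes were, and Atp5c1 was lower, where 2.42% were. The largest differences were those of Ndufs5 (0.13), Cox6b2 (0.12), Ndufab1 (0.11) and Cox6a1 (0.10) above 0, and of Ndufb3 (-0.12), Ndufc1 (-0.08), Cycs (-0.06) and Ndufaf1 (-0.05) below 0.

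With cytokines, too, 0 of 87 members passed in limma, as did 0% of all tested genes, and 2 members had an unadjusted p below 0.05, as did 1.99% of all tested genes. These were complex I subunits. Ndufc1 had 101, 113 and 102 FPKM in Adcy10-/- cells with cytokines, against 114, 117 and 116 FPKM in WT cells with cytokines (log2 difference -0.14, SE 0.06, adjusted p = 0.99992 with limma). Ndufa9, which sits near the ubiquinone site, had 70.1, 73.9 and 69.7 FPKM in Adcy10-/- cells with cytokines, against 74.8, 80.6 and 75.9 FPKM in WT cells with cytokines (log2 difference -0.11, SE 0.05). Neither gene overlapped between the groups, and neither passed. Without overlap 10 members were lower in Adcy10-/- cells, where 3.4% of tested genes were, among them Ndufc1, Ndufa9, Ndufb10, Ndufs4 and Ndufa3 of complex I, Cox7c and Cox6c of complex IV, Atp5j2 of complex V, and Ndufaf3. Only Ndufaf4, an assembly factor, was higher without overlap (12.4, 14.3 and 12.6 FPKM in Adcy10-/- cells against 11.4, 12.3 and 12.2 FPKM in WT cells), where 1.68% of tested genes were.

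Of the 87 members, 74 had a value below 0 in this comparison, and 13 a value above 0, against 43.0% of all tested genes above 0. The median log2 difference of the members was -0.05, against -0.01 over all tested genes. This value shares the WT cytokine libraries with the WT comparison above and moved with the same library. Without WT cytokines replicate 2 the median was -0.01, with 49 of 87 below 0. All tested genes then had a median of -0.02, with 39.1% above 0, so the members no longer lay below the background. With quantile normalization the members' median was -0.01, with 52 below 0, against 0.0033 and 52.2% above 0 over all tested genes. Without Adcy10-/- cytokines replicate 3 the members' median was -0.03, with 63 below 0, against -0.02 and 40.4% above 0 over all tested genes. With median-ratio scaling it was -0.03, with 72 below 0, against 0.0013 and 50.8% above 0 over all tested genes. Without Adcy10-/- cytokines replicate 2 it was -0.06, with 82 below 0. Markers of other cells also differed between these groups: 6 macrophage and monocyte markers summed to between 21.5 and 28.3 FPKM in Adcy10-/- cells and between 29.3 and 104 FPKM in WT cells, most of it Lyz2. Dendritic cell markers, 0 of 5 at 1 FPKM or more in every library, summed to between 0.617 and 1.46 FPKM in Adcy10-/- cells and between 1.56 and 2.19 FPKM in WT cells. Neither list overlapped, and their part in the result was not tested. The largest differences were those of Ndufs5 (-0.16), Ndufc1 (-0.14), Ndufaf3 (-0.13) and Ndufb11 (-0.12) below 0, and of Atp5s (0.18), Ndufaf4 (0.12), Cox7b (0.05) and Atp5sl (0.05) above 0, and all 8 failed the test. At these sizes the intervals are informative: the 95% interval of the genotype difference lay within 1.3-fold in either direction for 85 of 87 members at baseline and for 84 of 87 with cytokines. Among the 83 members at 10 FPKM or more, the intervals reached at most -0.45 and 0.30 with cytokines.

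**Figure D5:**
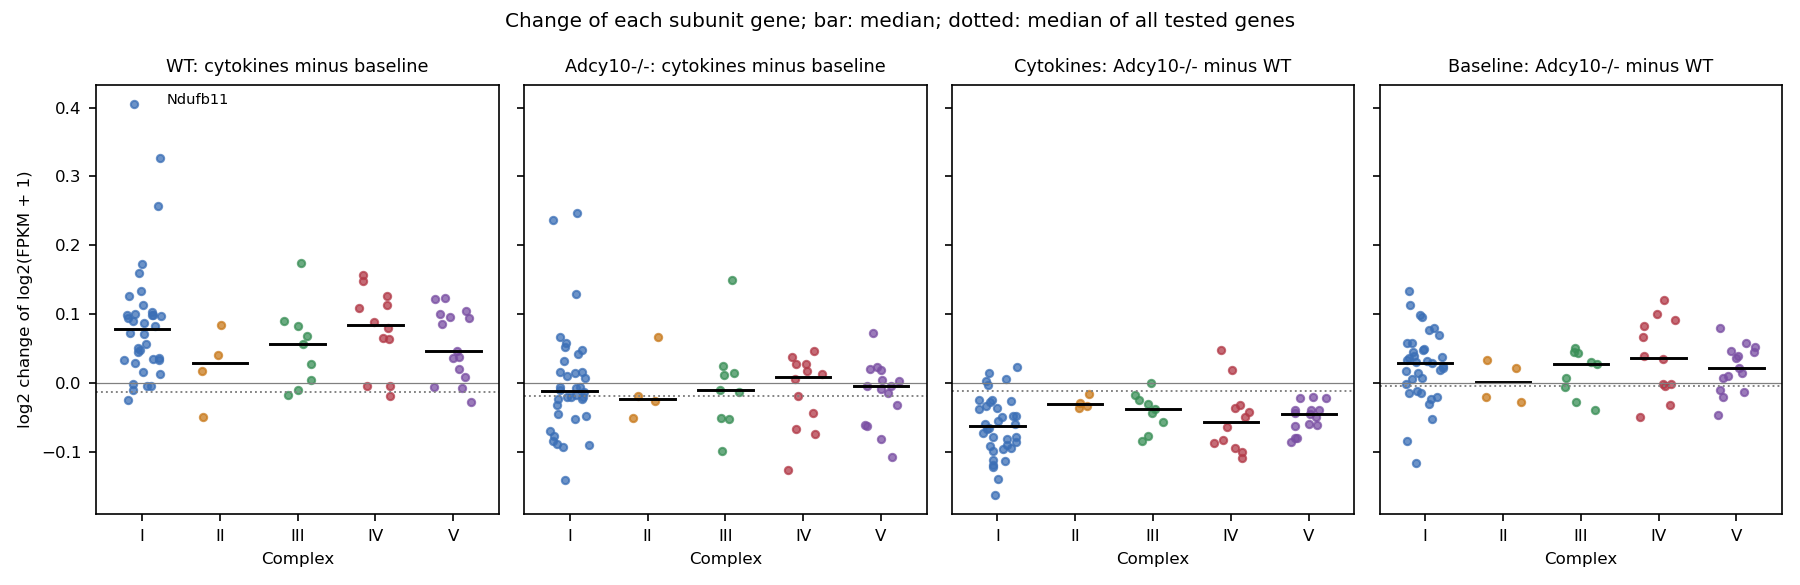
Difference on the log2(FPKM + 1) scale of each tested subunit gene (points), by complex, for the 4 comparisons; bars are medians of a complex and dotted lines the median of all tested genes. Ndufb11, named in the first panel, is the member that passed in the fit without a replicate block; WT changes lie mostly above 0 and the genotype differences with cytokines mostly below 0.

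Whether the response to cytokines differed between genotypes was tested as an interaction, the change in Adcy10-/- cells minus that in WT cells. In limma 0 of 87 members and 0% of all tested genes passed, and 2 members, and 1.11% of all tested genes, had an unadjusted p below 0.05. Ndufb10 gave -0.19 (SE 0.06), from a log2 change of -0.09 in Adcy10-/- cells and 0.10 in WT cells. Atp5d, the δ subunit of the central stalk of ATP synthase, gave -0.16 (SE 0.07), from -0.06 in Adcy10-/- cells and 0.10 in WT cells. Neither passed after adjustment (limma adjusted p = 0.99999 for both). For Ndufb11 the interaction was -0.16 (95% interval -0.39 to 0.08), and for Ndufv3 it was -0.02 (95% interval -0.26 to 0.21), so a difference between the genotypes in these responses was not shown. The median over members was -0.08, with 74 of 87 below 0, against -0.01 over all tested genes, of which 45.8% were above 0. It was -0.04, with 65 below 0, without WT cytokines replicate 2, where all tested genes had a median of -0.02 and 42.2% above 0. With quantile normalization the members' median was -0.02, with 55 below 0, against 0.0022 and 51.1% above 0 over all tested genes. Without Adcy10-/- cytokines replicate 3 it was -0.06, with 64 below 0, and with median-ratio scaling -0.07, with 72 below 0. The largest values below 0 were those of Ndufs5 (-0.30), Cox6b2 (-0.22), Ndufaf3 (-0.21) and Cox5a (-0.19), and above 0 those of Atp5s (0.22), Cycs (0.09), Ndufb3 (0.08) and Ndufaf1 (0.07).

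The promoters of the members were searched for motifs of 4 factors known to act on nuclear genes of the respiratory chain, on both strands of the RefSeq windows. Of 89 members, 75 matched the table. The NRF1 motif searched, GCGCA and GCGC around 1 free base, was in the windows of 25.3% of these members, 13.0% of the tested genes and 5.19% of all genes in the table. AANATGGCG (YY1) was in 14.7% of members and 6.98% of tested genes, TNAAGGTCA (estrogen-related receptors) in 4.0% and 0.847%, and CCGGAAGT (GABP) in 6.67% and 10.7%. Complex V held the NRF1 motif in 6 of 14 matched subunit genes (42.9%), complex II in 2 of 3 (66.7%), complex I in 7 of 32 (21.9%), complex III in 1 of 5 (20.0%), and complex IV in 1 of 11, Cox6a1. The sites of complex V are shown because that complex had the highest levels; each is 30 bases in the direction of the gene, from RefSeq, GRCm38.p6, with the motif in capitals, and a motif on the other strand is printed as its reverse complement.
Atp5c1, chr2:10080430-10080459, minus strand: ctgagctcccGCGCACGCGCactgagtccc
Atp5g2, chr15:102671070-102671099, minus strand: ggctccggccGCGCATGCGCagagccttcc
Atp5g3, chr2:73911295-73911324, minus strand: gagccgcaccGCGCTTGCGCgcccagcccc
Atp5h, chr11:115420041-115420070, minus strand: gaccccgacgGCGCAGGCGCcgcgcccgcc
Atp5k, chr5:108434430-108434459, minus strand: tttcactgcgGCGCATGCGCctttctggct
Atp5o, chr16:91931602-91931631, minus strand: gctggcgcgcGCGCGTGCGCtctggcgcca
These genes lay between 239 FPKM (Atp5c1) and 558 FPKM (Atp5g3), and none passed in any comparison without or with a block. None of the genes of these factors passed in either genotype. In WT cells Nrf1 averaged 15.3 FPKM with cytokines and 15.1 FPKM at baseline, and Yy1 averaged 36.1 FPKM with cytokines and 37.3 FPKM at baseline.

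Neighbouring mitochondrial functions were read from lists chosen by function, beside a background of 4.27% of all tested genes passing in Adcy10-/- cells and 4.93% in WT cells. At that rate, 1 gene in a list of 14 to 25 is near the background. Of 19 tested genes of the tricarboxylic acid cycle and of the pyruvate enzymes that feed it (Pdha1, Pdhb, Dlat, Pdhx and Pcx), 1 rose in WT cells, and the same gene was the 1 that rose in Adcy10-/- cells: Suclg1, the α subunit of succinyl-CoA ligase, averaged 117 FPKM in Adcy10-/- cells with cytokines and 97.7 FPKM in Adcy10-/- cells at baseline (log2 change 0.25, SE 0.05, limma adjusted p = 0.0150). In WT cells Suclg1 averaged 122 FPKM with cytokines and 98.5 FPKM at baseline (log2 change 0.31, SE 0.05, limma adjusted p = 0.00506). A mixed list of 25 tested genes held carriers, channels, Ucp2, genes of ubiquinone synthesis and of electron transfer to ubiquinone, and Aifm1. Of these, Ucp2 rose in WT cells, with 119 FPKM with cytokines and 99.2 FPKM at baseline (log2 change 0.26, SE 0.05, limma adjusted p = 0.0134), and 0 passed in Adcy10-/- cells, where Slc25a3, the phosphate carrier, had the smallest p (log2 change -0.13, limma adjusted p = 0.164). Of 14 regulators of mitochondrial biogenesis, Tfb1m, a methyltransferase of mitochondrial ribosomal RNA, fell in WT cells, with 5.66 FPKM with cytokines and 7.54 FPKM at baseline (log2 change -0.36, SE 0.08, limma adjusted p = 0.0319). In Adcy10-/- cells 0 of these 14 passed, and Nfe2l2 had the smallest p (log2 change 0.20, limma adjusted p = 0.157). Of 39 assembly factors and related genes (such as Atpif1, Lrpprc and Taco1) that do not carry the searched names, 0 passed in limma in any comparison. Acad9, a factor of complex I, had the smallest p in WT cells (log2 change -0.18, adjusted p = 0.0912 with limma).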

How the data were processed

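The deposited files hold 1 FPKM value per gene and library, which the authors computed. The tools, per the submitters' processing notes, were STAR 2.4.0f1, SAMtools 0.1.19, Cufflinks and HTSeq, with the mm9 build; the annotation and the handling of strand are not given in the sources used here. FPKM carries neither counts nor depth, so the spread between libraries is the only measure of error. Each file held 24488 entries for 23991 names; 258 names listed several times were summed, none of them a member.

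Values were transformed as log2(FPKM + 1), which understates changes of genes near 1 FPKM. A minimum of 1 FPKM in 3 or more libraries left 10126 genes, which limma 3.58.1 (R 4.3.3) fitted as 4 group means over all 12 libraries (empirical Bayes with trend). Adjusted p-values are Benjamini-Hochberg values over those genes, called below 0.05. Differences are cytokines minus baseline and Adcy10-/- minus WT. The pipeline was tested on simulated data. Tables and figures used Python 3.11.15, numpy 2.4.6, pandas 2.3.3 and matplotlib 3.10.9.

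One member enters the counts, medians and sums but is not reported here by itself. Complexes were assigned from general knowledge of each subunit. The members and lists were chosen with earlier results of these data known. The members named are those that passed, the 4 largest changes each way in a comparison, the 2 highest and 2 lowest of each complex, isoform families, the most and least variable, and those at the edge of the detection rule; pathway genes are those that passed or had the smallest p. The other members named were chosen after their values were seen.

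Residuals of libraries with the same number correlated at 0.294 to 0.536 within a genotype (6 pairs) and at 0.262 to 0.422 between genotypes with cytokines, but at 0.0736 for 1 baseline pair. The other baseline pairs correlated at 0.371 and 0.523. The labels do not say what libraries of the same number share, and these values do not single out a comparison as paired. The main fit used no block, and fits with a block are given beside it. Libraries of the same number that shared neither genotype nor medium correlated at 0.0874 to 0.448 (6 pairs, median 0.321). The median of the 6 pairs that shared a medium was also 0.321. Alternatives were other pseudocounts, filters, scalings and blocks, a fit on the libraries compared, subunits alone, and leaving out each library.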

Additional observations from a re-analysis of the deposited data

How the results depend on the processing

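The replicate block changed the count of members passing in both cytokine effects. In Adcy10-/- cells 0 members passed without a block, 2 with the replicate block over all 12 libraries, 2 with the block within genotype and 2 with the block and median-ratio scaling together, the last chosen after seeing the data; over all tested genes 432 passed without a block and 1086, 1193 and 1070 with these. In WT cells 1 member passed without a block, and the same 3 blocked fits gave 3, 3 and 4, with 499 of all tested genes without a block and 1502, 1574 and 1508 with these. The block changed no call of the genotype effects or the interaction. Leaving out each library in turn gave counts of 0 to 1 in Adcy10-/- cells and 0 to 1 in WT cells, and the library that moved both was WT baseline replicate 2 (1 in Adcy10-/- cells, Ndufv3, limma adjusted p = 0.0457, and 0 in WT cells). Pseudocounts of 0.1 and 5, other filters, median-ratio scaling, quantile normalization, subunits alone, a fit on the 6 libraries compared, and leaving out the 4 libraries numbered 1 (added after seeing the data) left the counts at 1 in WT cells and 0 in the other comparisons. Without the libraries numbered 1 the median member change was -0.0045 in Adcy10-/- cells and 0.09 in WT cells. FPKM gives no depth, so what depth limits cannot be stated.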
